A study of Arabidopsis thaliana with 12 samples.

Results

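The data compared etiolated Arabidopsis thaliana seedlings that lacked EIN2 with wild-type seedlings while both were in ethylene. The comparison rested on 4 of the series' 12 arrays: ein2 in ethylene and wild type in ethylene, 2 arrays each, chosen by their sample labels. The ein2 plants carried the ein2-5 allele and the wild type was the Col-0 accession. Both groups had been in 10 ppm ethylene for 4 hours before harvest, per the labels. The other 8 arrays held the same genotypes in hydrocarbon-free air and the mutant ein5, allele ein5-1, in both gases, so that the series had 6 groups. Each array measured 22746 probe sets, the short-oligonucleotide groups that stand for a transcript, and all of them were tested.

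Ethylene is a gaseous plant hormone that dark-grown seedlings answer with a short hypocotyl and root and an exaggerated apical hook. Its receptors act through the kinase CTR1 on EIN2, a membrane protein of the endoplasmic reticulum, and EIN2 passes the signal to the transcription factors EIN3 and EIL1. Seedlings without EIN2 keep the tall, dark-grown form when ethylene is present.

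The labels did not agree on how the seedlings were grown. The series text and 1 sample gave 3 days in the dark at 24 °C, and the other 11 samples gave 5 days at 25 °C. That 1 sample was the first ein2 array in air. It enters the comparison in air and the test of the difference between the gases. The arrays compared in ethylene all carried the same growth label. The extraction text named mature leaves where the other fields named seedlings. None of the text stated that the 2 arrays of a group came from separately grown material, so each p-value reflects array-to-array spread, which may be technical. With 2 arrays against 2, an array left out can change a call. A probe set for EIN2 was not among those with a gene name here, so the mutation itself was not analysed here. The wild-type arrays in ethylene were the least alike of any group: the median absolute log2 difference between them was 0.32, against 0.19 for the ein2 arrays in ethylene.

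In ethylene, 2246 probe sets differed between ein2 and wild type at an adjusted p under 0.05 in limma, which was 9.87% of those tested. Of these, 1456 were higher in ein2, or 6.40%, and 790 were lower, or 3.47%. Among the higher ones 616 passed a 2-fold difference, and among the lower ones 270 did. The median log2 difference was 0.89 for the higher set, -0.80 for the lower set and 0.02 for all probe sets. The typical higher transcript stood at a median scaled intensity of 1631 in wild type and 3195 in ein2, and the typical lower transcript at 3447 in wild type and 1837 in ein2. Without the second ein2 array 1131 probe sets were called, and without the first 1363. When the second wild-type array was left out 1786 were higher and 579 lower. The split between higher and lower calls was 1272 to 1038 when the deposited values were used unscaled.

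**Figure D1:**
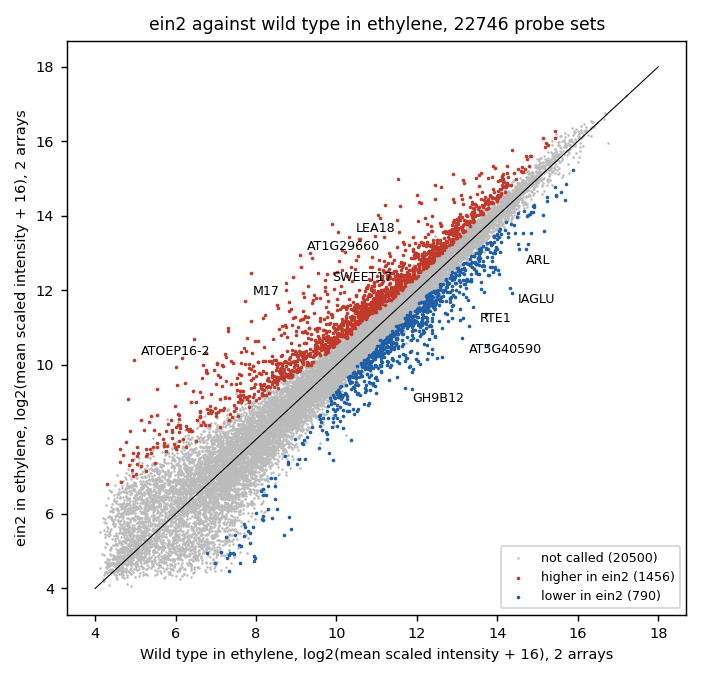
Mean level of each of the 22746 probe sets in ethylene, wild type on the horizontal axis and ein2 on the vertical axis, both as log2 of the mean scaled intensity of 2 arrays plus 16. The line marks equal levels; 1456 probe sets called higher in ein2 are red and 790 called lower are blue, and the far points above the line lie at low wild-type levels.

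Of the probe sets, 13513 were paired with 1 gene, and 1125 of these were called, or 8.33%, with 729 higher, or 5.39%, and 396 lower, or 2.93%. Both ein2 arrays lay above both wild-type arrays for 25.2% of all probe sets and below them for 21.4%, so 2 groups that do not overlap are common at this size. The change given for a gene is the log2 difference of ein2 minus wild type on the scale of log2(scaled intensity + 16), with the standard error of the fit. On that scale the change of a dim transcript is understated. Probe sets can also bind transcripts of closely related genes, which bears on the gene families described here.

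Few genes of the ethylene pathway could be named. Of 3 pathway genes 2 were lower in ein2 in ethylene, and of 3 ethylene-induced genes, which share RTE1 with them, 2 were lower. Over all probe sets 3.47% were lower. RTE1 encodes a membrane protein that acts with the receptor ETR1. Its scaled intensity in ethylene was 10955 and 10551 in the wild-type arrays and 2944 and 3017 in the ein2 arrays. The ein2 arrays were both far below the wild-type arrays, a difference of -1.85 ± 0.12 (SE, adjusted p = 2.3e-07). In air the levels of RTE1 were 2912 and 2613 in wild type and 1182 and 1179 in ein2, so that ein2 in ethylene stood at about the wild-type air level and above ein2 in air. ARL, the ARGOS-LIKE gene that promotes cell expansion, ran the same way, with 21927 and 25586 in wild type and 8757 and 8749 in ein2 in ethylene. The groups did not overlap and the difference was -1.43 ± 0.12 (SE, adjusted p = 2.2e-06). In air ARL was at 7905 and 7981 in wild type and at 3363 and 3122 in ein2. Both genes were thus called lower in ein2 in air too. The differences there were -1.21 for RTE1 (adjusted p = 6.8e-05) and -1.29 for ARL (adjusted p = 3.7e-05). The change of the genotypes' difference between the gases was called for neither, at -0.63 for RTE1 (adjusted p = 0.0532) and -0.15 for ARL (adjusted p = 0.741).

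EIN3 itself, the transcription factor at the end of the pathway, gave 11244 and 14147 in wild type and 9059 and 9449 in ein2 in ethylene. The ein2 arrays were the lower ones and the difference was -0.45 ± 0.12 (SE, adjusted p = 0.0308). That call did not survive leaving out either ein2 array in ethylene, either ein2 array in air or the second wild-type array in ethylene, and the adjusted p reached 0.167. ETP2, an F-box protein that marks EIN2 for degradation, overlapped between the groups, with a difference of 0.18 ± 0.25 (SE, adjusted p = 0.759). PDF1.2, a defensin gene that ethylene and jasmonate induce, was dim on all 4 arrays, at 103 and 267 in wild type and 29.1 and 157 in ein2, where the groups overlapped, with a difference of -1.05 ± 0.66 (SE, adjusted p = 0.389). AT1G12010, an ACC oxidase gene and so one of the last step of ethylene synthesis, was the 1 measured member of the biosynthesis list. It was higher in ein2, at 1861 and 2116, than in wild type, at 808 and 563, by 1.53 ± 0.21 (SE, adjusted p = 0.00026). In air it was at 2043 and 1702 in wild type and 1211 and 1639 in ein2, with ein2 the lower and no call (adjusted p = 0.382).

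Among called probe sets that were paired with 1 gene and whose groups did not overlap, the 12 largest rises held late embryogenesis genes, a plastid envelope gene, a peroxidase gene and 8 genes known here only by locus number. ATOEP16-2 encodes a channel protein of the outer plastid envelope. It was near the floor of detection in wild type, at 10.1 and 20.6, and at 1244 and 966 in ein2, a difference of 5.17 ± 0.37 (SE, adjusted p = 6.1e-07). M17, a gene of late embryogenesis, was at 216 and 179 in wild type and 3148 and 3587 in ein2, a difference of 3.99 ± 0.24 (SE, adjusted p = 1.2e-07). Both genes separated the genotypes in air as well, by 3.59 ± 0.37 for ATOEP16-2 and 3.94 ± 0.24 for M17. PRX52, a class III peroxidase of the cell wall, was at 142 and 30.1 in wild type and at 912 and 1100 in ein2, so that all ein2 values lay above all wild-type values (log2 difference 3.58 ± 0.46, adjusted p = 0.00016). Among the bright transcripts AT1G29660 went from 545 and 517 in wild type to 7439 and 8306 in ein2, a difference of 3.85 ± 0.14 (SE, adjusted p = 1.7e-09). AT3G54940 was at 481 and 775 in wild type and 7890 and 8422 in ein2. Of the 12 largest rises, 9 were also called higher in ein2 in air. The wild-type mean in ethylene was under a scaled intensity of 100 for 8 of the 12.

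Late embryogenesis abundant proteins accumulate in drying seeds and are thought to protect cells against loss of water. Of 7 probe sets whose annotated names marked them as such genes, 4 were higher in ein2 in ethylene and none was lower. Among all probe sets 6.40% were higher and 3.47% lower. The median difference of the 7 was 2.16 against 0.02 for all probe sets. The dehydrin gene listed as LEA was at 113 and 29.3 in wild type and at 1692 and 1582 in ein2 (log2 difference 4.43 ± 0.41, adjusted p = 6.8e-06). LEA18 was at 1416 and 1093 in wild type and 10862 and 11217 in ein2 (log2 difference 3.13 ± 0.19, adjusted p = 1.4e-07). AtLEA4-1 was at 308 and 558 in wild type and 3293 and 3323 in ein2 (log2 difference 2.95 ± 0.25, adjusted p = 3.4e-06). In all of these the lowest ein2 array was well above the highest wild-type array, and LEA4-5 followed with a difference of 2.16 ± 0.22 (SE, adjusted p = 1.8e-05). All 4 kept their calls under every alternative and were also called higher in ein2 in air, by 2.45, 1.86, 2.21 and 0.98. Of these 4, LEA18 was the only one whose difference between genotypes was itself larger in ethylene than in air at an adjusted p under 0.05, by 1.27 ± 0.27 (SE, adjusted p = 0.0177). That larger difference was not called without either ein2 array in ethylene, or without the second ein2 or wild-type array in air (adjusted p up to 0.102). The 3 members that were not called lay between -0.34 and 0.04. M10, a late embryogenesis gene that its name kept out of the list and that was chosen after its values were seen, was lower in ein2 in ethylene, by -1.06 ± 0.26 (SE, adjusted p = 0.0174). Its call was lost without either ein2 array or the first wild-type array in ethylene (adjusted p up to 0.127). Under quantile normalization, and without the first wild-type array, 1 member was called lower.

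**Figure D2:**
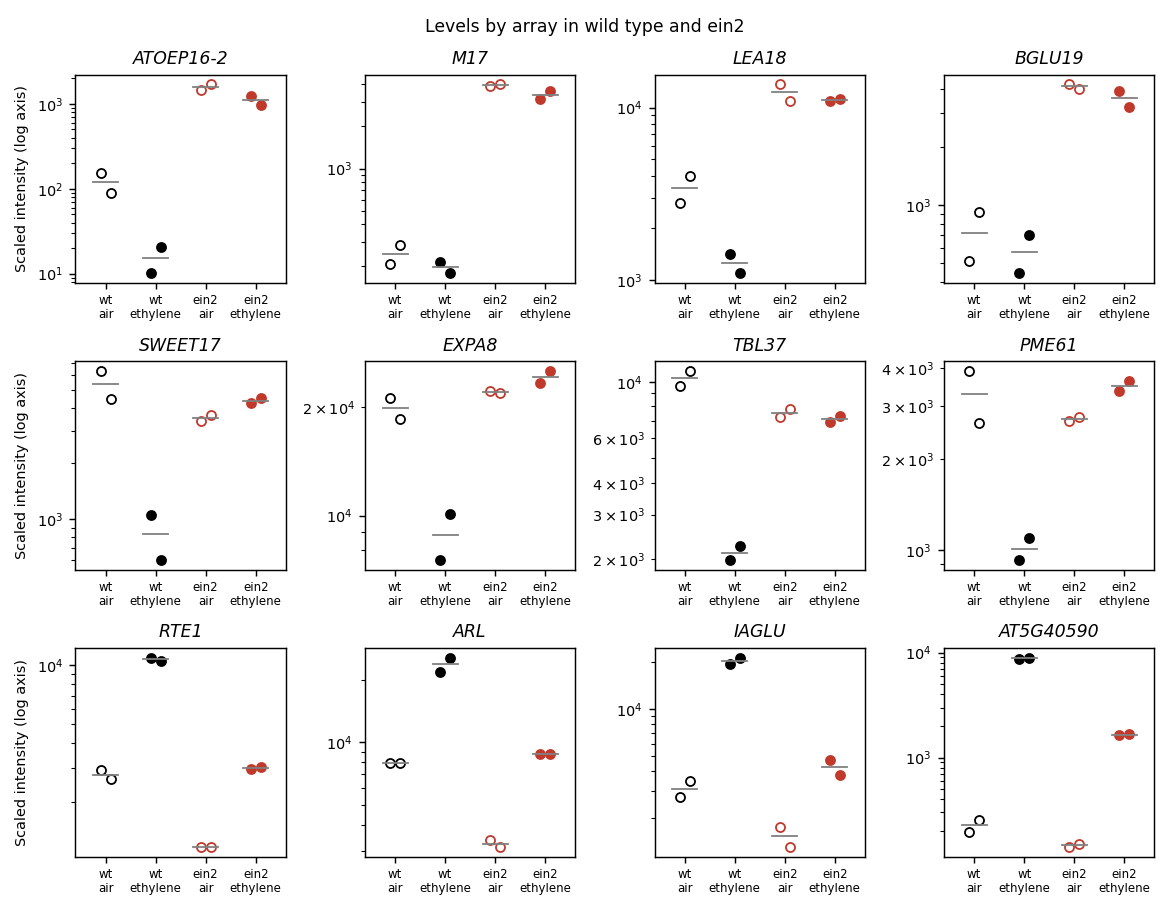
Scaled intensity on each array, on log axes that differ between panels, for 12 genes in wild type and ein2 in air (open points) and ethylene (filled points); grey bars are the means of 2 arrays. In the top row ein2 lies above wild type in both gases, in the middle row wild type in ethylene stands alone at the low end, and in the bottom row wild type in ethylene stands alone at the high end.

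Of 4 genes that mobilise seed reserves, none was called in either direction, and their median difference was 0.16. The share called over all probe sets was 9.87%. ICL, isocitrate lyase of the glyoxylate cycle that turns stored oil into sugar, was among the brightest transcripts, at 58123 and 113813 in wild type and 83706 and 89264 in ein2. The second wild-type array was above both ein2 arrays and the first was below them. Of 5 probe sets for nuclear light-harvesting and photosystem genes, none was called, and their summed level was 57788 to 61627 in wild type and 51583 to 54246 in ein2. The 2 pollen genes of the marker list were dim, with summed levels of 242 to 257 in wild type and 296 to 439 in ein2, and neither was called. Whether these differences in marker levels had a part in the calls was not tested.

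Expansins loosen the cell wall and allow growing cells to extend, and they had the most calls among the wall gene families. Of 19 expansin probe sets, 7 were higher in ein2 in ethylene and 2 were lower, with a median difference of 0.40. Over all probe sets 6.40% were higher and 3.47% lower. EXPA8 was the brightest of the 7, at 7514 and 10105 in wild type and 23319 and 25277 in ein2. The wild-type arrays were both below the ein2 arrays, by 1.48 ± 0.14 (SE, adjusted p = 9.9e-06). EXPB1 was at 1442 and 2178 in wild type and 5917 and 6701 in ein2 (log2 difference 1.82 ± 0.18, adjusted p = 1.4e-05), and EXPB3 at 563 and 557 in wild type and 2180 and 2600 in ein2 (log2 difference 2.06 ± 0.18, adjusted p = 5e-06). EXPA15 rose by 1.61, and EXPA4 and EXLA2, named after their values were seen, by 1.32 and 1.00. Without either ein2 array, or without the second wild-type array, 6 expansins were higher and none lower. In air the difference was 0.15 for EXPA8, 0.38 for EXPB1 and 0.12 for EXLA2, none of which was called, whereas EXPB3, EXPA15 and EXPA4 were called higher in ein2 in air too. The difference between the gases was itself called for 4 expansins, among them EXPB1 (log2 difference 1.44 ± 0.26, adjusted p = 0.00644) and EXPA8 (log2 difference 1.33 ± 0.20, adjusted p = 0.00214).

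The 2 lower expansins, EXPA7 and EXPA18, are the expansins of root hairs, tip-growing cells that ethylene promotes. EXPA7 was at 2126 and 2501 in wild type and 1223 and 1319 in ein2 in ethylene, and EXPA18 at 3604 and 4772 in wild type and 3002 and 2655 in ein2. Both genes were lower on each ein2 array than on either wild-type array, with differences of -0.85 ± 0.22 (SE, adjusted p = 0.0241) and -0.55 ± 0.16 (SE, adjusted p = 0.0424). Both calls were lost without either ein2 array or the second wild-type array in ethylene, without the variance trend and with array weights. The EXPA18 call was also lost with only the groups compared, and without any ein2 array in air or any ein5 array. Over all alternatives the difference ran from -0.97 to -0.74 for EXPA7 and from -0.75 to -0.35 for EXPA18. In air the differences were of like size, -0.83 and -0.66. Fewer root hair cells and less of these transcripts in each cell cannot be told apart in whole seedlings.

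**Figure D3:**
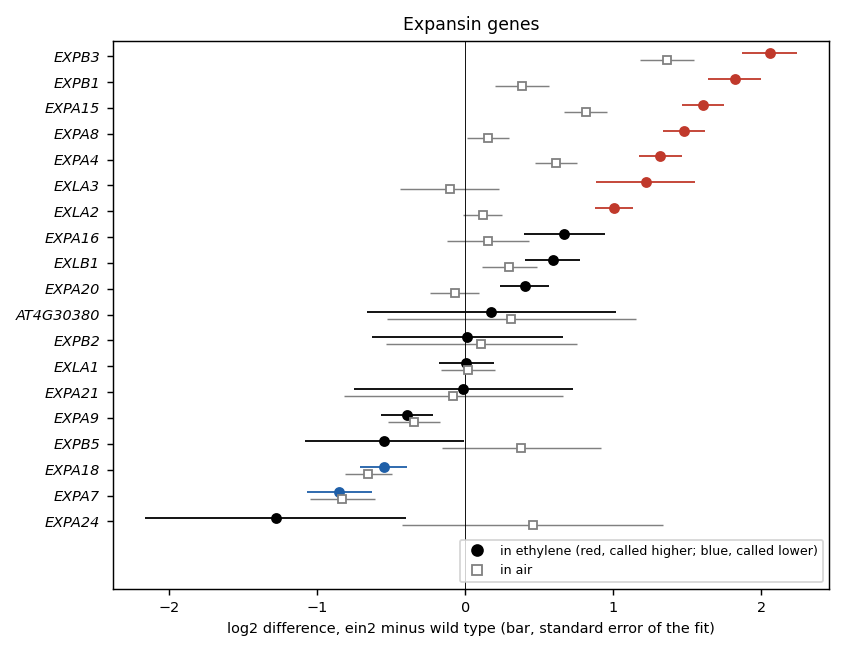
The log2 difference of ein2 minus wild type for 19 expansin genes, in ethylene (filled circles, red where called higher and blue where called lower) and in air (open squares), with bars for the standard error of the fit. The 7 red genes lie between 1.00 and 2.06 in ethylene, and EXPA7 and EXPA18 lie below 0 in both gases.

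Other wall genes moved in both directions. TBL37 belongs to a family that adds acetyl groups to wall polysaccharides. It was at 1986 and 2260 in wild type and 6925 and 7370 in ein2 in ethylene, and at 9649 and 11045 in wild type in air. Wild type in ethylene was thus low against every other array of these genotypes, and the difference between genotypes was 1.75 ± 0.11 (SE, adjusted p = 2.6e-07). PME61, a pectin methylesterase, was also lowest in wild type in ethylene, with 928 and 1099 in wild type and 3361 and 3624 in ein2 (log2 difference 1.77 ± 0.17, adjusted p = 9.3e-06). Wild type in air, at 3910 and 2636, overlapped ein2 in ethylene. GH9B12, a putative endoglucanase of glycosyl hydrolase family 9, went the other way, at 2987 and 3622 in wild type and 661 and 651 in ein2 (log2 difference -2.30 ± 0.25, adjusted p = 3.6e-05). Its levels in air were 376 and 373 in wild type and 391 and 222 in ein2, far below wild type in ethylene. XTH26, which joins and cuts xyloglucan, was at 1110 and 1474 in wild type and 264 and 214 in ein2 in ethylene (log2 difference -2.35 ± 0.43, adjusted p = 0.00255). It was lower in ein2 in air as well, at 14.6 and 11.9 against 213 and 140. By family, 3 of 22 trichome birefringence-like genes were higher and 1 was lower, 1 of 15 family 9 hydrolases was higher and 3 were lower, and 1 of 11 xyloglucan genes was lower. The shares called were 18.2%, 26.7% and 9.09%, against 9.87% of all probe sets. TBL19, among the higher ones, lost its call with the deposited values, after quantile normalization and without any of 10 of the 12 arrays. Without the first wild-type array 2 xyloglucan genes were lower, and without the first ein2 array no family 9 hydrolase was higher. Without the second ein2 array, 1 trichome birefringence-like gene was called higher. Of 4 pectin-acting genes, or 50.0% called, PME61 was the 1 higher and ATPMEPCRB the 1 lower, and the median difference was -0.27. The ATPMEPCRB call was lost without the first ein2 array in ethylene, without the variance trend and with only the groups compared.

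Auxin controls cell growth together with ethylene, and 3 of 12 auxin genes were higher and 2 lower. The shares over all probe sets were 6.40% and 3.47%. IAGLU, the enzyme that joins the auxin indole-3-acetic acid to glucose, had the largest change, from 19566 and 21316 in wild type to 4684 and 3800 in ein2 (log2 difference -2.27 ± 0.16, adjusted p = 6.1e-07). IAA20, a repressor of the Aux/IAA family, was at 3626 and 3255 in wild type and 1103 and 1195 in ein2 (log2 difference -1.57 ± 0.19, adjusted p = 7.3e-05). The wild-type arrays in ethylene were the high ones, since those in air gave 2723 and 3439 for IAGLU and 1006 and 1335 for IAA20. The ein2 arrays in air gave 1745 and 1303 for IAGLU and 681 and 926 for IAA20. IAGLU was called lower in ein2 in air too (log2 difference -1.01, adjusted p = 0.00357), and IAA20 was not called there (adjusted p = 0.159). GH3.17, which joins auxin to glutamate, was higher in ein2, at 11795 and 12862 against 4592 and 5937 (log2 difference 1.24 ± 0.14, adjusted p = 5.1e-05). In the cytokinin response, RR16, a type-A response regulator, was at 1205 and 817 in wild type and 243 and 377 in ein2 (log2 difference -1.66 ± 0.34, adjusted p = 0.00525), and it was the 1 of 6 regulators called. Without the first ein2 array its adjusted p was 0.0651, and 1 auxin gene was called higher and 3 lower; without the second, 2 regulators were lower.

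Sugar transporters of the SWEET family had 2 higher and 1 lower member of 15, or 20.0% called against 9.87% of all probe sets. SWEET17 and SWEET16 carry sugars across the vacuole membrane. SWEET17 was at 1056 and 600 in wild type and 4261 and 4491 in ein2 in ethylene (log2 difference 2.43 ± 0.22, adjusted p = 5.3e-06), and SWEET16 at 1680 and 1700 in wild type and 3229 and 3082 in ein2 (log2 difference 0.89 ± 0.18, adjusted p = 0.00402). In air SWEET17 was at 6334 and 4485 in wild type and 3393 and 3673 in ein2, with both wild-type arrays the higher and no call (adjusted p = 0.188), and the genotypes' difference between the gases was 3.03 ± 0.31 (SE, adjusted p = 0.0001). SWEET14 was lower in ein2 in ethylene, at 22.5 and 31.5 against 98 and 229, close to the offset, and its call was lost without either ein2 array in ethylene or in air, either ein5 array in air or the second wild-type array in ethylene (adjusted p up to 0.193 over all alternatives).

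In 5 families of enzymes that act on small molecules, peptides and oxidised proteins, more members were called higher than lower in ein2. This was also so over all probe sets, of which 6.40% were higher and 3.47% lower. Of 50 UDP-glycosyltransferases, which attach sugars to hormones and secondary metabolites, 9 were higher and 3 lower, with a median of 0.38. Without either ein2 array 3 were higher and 1 was lower, and without the second wild-type array 9 and 1. UGT84A4 was at 565 and 664 in wild type and 1736 and 1594 in ein2 (log2 difference 1.42 ± 0.19, adjusted p = 0.00018), with the groups apart. Of 20 beta-glucosidases 4 were higher and none lower, led by BGLU19, at 441 and 699 in wild type and 3935 and 3242 in ein2 (log2 difference 2.65 ± 0.26, adjusted p = 1.1e-05). BGLU19 stood apart by nearly as much in air, at 510 and 921 in wild type and 4256 and 4012 in ein2 (2.56 ± 0.26). Of 12 glutathione S-transferases 3 were higher and none lower, and GSTU26 was at 4383 and 3508 in wild type and 8124 and 8311 in ein2 (log2 difference 1.06 ± 0.14, adjusted p = 0.00023). Of 4 methionine sulfoxide reductases of the B type, which repair oxidised methionine, 2 were higher: MSRB9 at 17964 and 23990 in wild type and 53668 and 57913 in ein2 (log2 difference 1.42 ± 0.16, adjusted p = 4.9e-05), and MSRB6 by 2.08 ± 0.27 (SE, adjusted p = 0.00018). Of 29 serine carboxypeptidase-like genes 5 were higher and 1 lower, and scpl29 was at 4481 and 4635 in wild type and 9242 and 9815 in ein2 (log2 difference 1.06 ± 0.12, adjusted p = 4.7e-05). Without either ein2 array or the first wild-type array 3 carboxypeptidase-like genes were higher. Of 26 cytochrome P450 genes, CYP718 alone was called, lower in ein2 at 1045 and 1196 against 4877 and 4795 (log2 difference -2.10 ± 0.31, adjusted p = 0.00051). Its air levels were 660 and 546 in wild type and 48.7 and 67 in ein2, so that the arrays in ethylene lay above those in air in both genotypes.

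**Figure D4:**
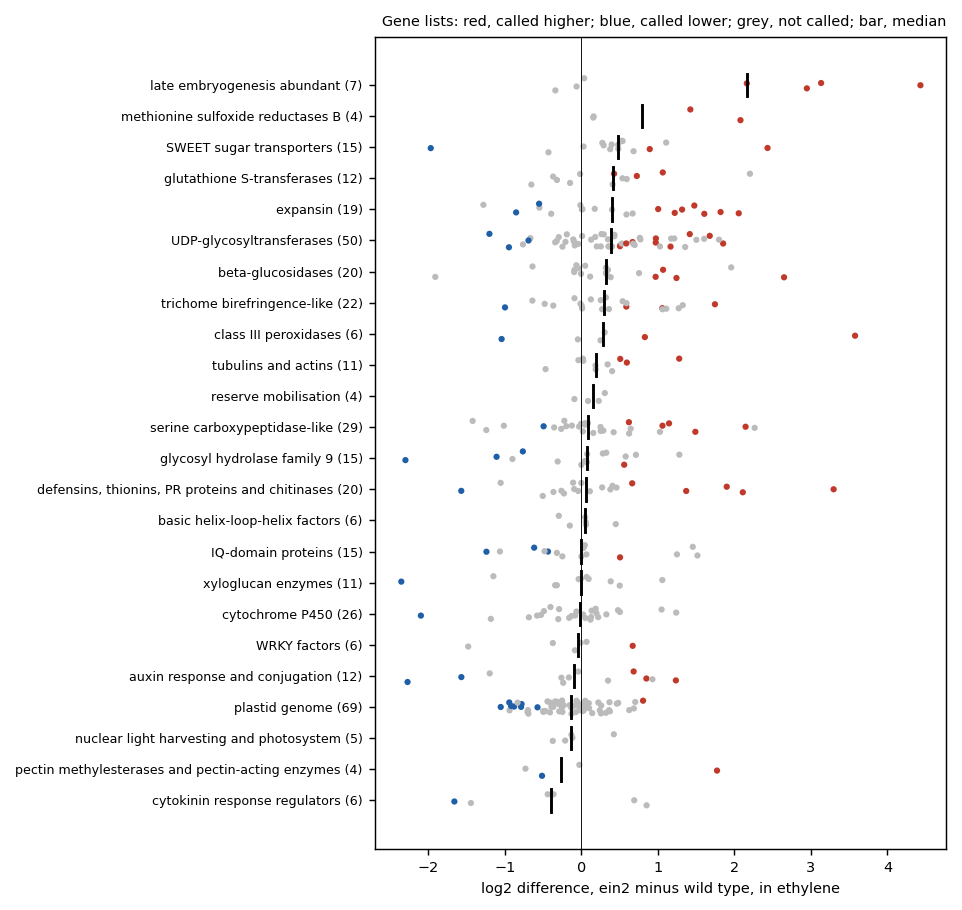
The log2 difference of ein2 minus wild type in ethylene for the members of 24 gene lists with at least 4 probe sets, ordered by their medians (black bars), with the number of probe sets in brackets. Late embryogenesis abundant genes have the highest median, 2.16, with 4 of 7 called higher, and most of the other medians lie within 0.5 of 0.

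Defence and cytoskeleton genes were also called. For the counts that follow, 6.40% of all probe sets were higher and 3.47% lower. Of 20 defensins, thionins, PR proteins and chitinases, 5 were higher and 1 lower in ein2, with a median of 0.06. PDF2.1, a defensin, was at 144 and 156 in wild type and 738 and 666 in ein2 (log2 difference 2.11 ± 0.28, adjusted p = 0.00021) and was higher in ein2 in air by 2.38 ± 0.28. PDF2.5, another defensin, was lower in ein2, at 3052 and 2756 against 9026 and 8263 (log2 difference -1.57 ± 0.12, adjusted p = 1.6e-06). Among 11 tubulin and actin genes, 3 were higher, and ACT11, an actin gene, was at 2024 and 2681 in wild type and 5213 and 6181 in ein2 (log2 difference 1.28 ± 0.18, adjusted p = 0.00025). Without either ein2 array 1 of the 11 was called. Of the 6 class III peroxidases found by an annotated name or synonym, 2 were higher and 1 was lower. The lower one, AT5G64120, was at 15724 and 18554 in wild type and 8159 and 8420 in ein2 (log2 difference -1.04 ± 0.11, adjusted p = 3.4e-05). Members of that family without such a name are not in the list, so these counts do not describe the family. Without either ein2 array, or without the first wild-type array, 1 peroxidase was higher. None of the 6 factors annotated by the name basic helix-loop-helix was called, but the list does not hold members of that family under other names, some of which were called, such as NAI1. Of 15 IQ-domain proteins, which bind calmodulin, 1 was higher and 3 were lower, and of 6 WRKY factors 1 was higher. Without the first ein2 array 1 IQ-domain gene was higher and none lower, without the second none was higher and 1 lower, and without the second wild-type array 1 was higher and none lower. The WRKY call was lost without either ein2 array or the first wild-type array.

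The transcripts of the plastid genome had a median difference of -0.13 in ethylene over 69 probe sets, with 7 called lower in ein2 and 1 higher. This made 11.6% called in either direction, close to the 9.87% of all probe sets. Their summed level was 581744 and 874202 in the wild-type arrays and 603280 and 604171 in the ein2 arrays, so the wild-type range enclosed ein2. Leaving out either ein2 array ended nearly all of these calls. Leaving out either wild-type array changed both the lower and the higher calls. The median was -0.15 without the first ein2 array and -0.13 without the second. The shift turned with the wild-type arrays: the median was -0.46 without the first and 0.11 without the second.

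The 12 largest falls, chosen like the rises, were of 2 kinds. Of the 12, 9 lost their call when 1 array was left out, with AT4G10440, AT5G19890 and AT5G40590 the exceptions, and 10 had an ein2 mean under a scaled intensity of 100, where the offset of 16 weighs on the ratio. AT4G35210, the largest of these, went from 226 and 235 in wild type to 6.95 and 14.7 in ein2 (log2 difference -3.22 ± 0.71, adjusted p = 0.00886), and without the first ein2 array its adjusted p was 0.0638. The other 2 were bright. AT5G40590 was at 8801 and 8953 in wild type and 1645 and 1671 in ein2 in ethylene (log2 difference -2.41 ± 0.22, adjusted p = 5.9e-06), against 195 and 256 in wild type and 140 and 152 in ein2 in air. AT5G19890 was at 17249 and 24641 in wild type and 3663 and 4146 in ein2 (log2 difference -2.40 ± 0.22, adjusted p = 5.4e-06), against 1068 and 945 in wild type and 291 and 488 in ein2 in air. For both, ein2 in ethylene stood between the air arrays and wild type in ethylene.

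The air arrays, which share none with the ethylene comparison, showed how far the 2 genotypes already differed without added ethylene. The first ein2 array in air was the sample labelled with other growth conditions than the rest, and an effect of this was not tested. In air 616 probe sets were called, or 2.71%, with 282 higher in ein2, or 1.24%, and 334 lower, or 1.47%. Of the 1456 called higher in ethylene, 914 had the same sign in air, or 62.8%, and 179 were called higher there. Of the 790 called lower, 557 had the same sign, or 70.5%, and 133 were called lower. Among probe sets not called in ethylene, 53.6% had the same sign in both gases. Leaving out single air arrays gave 160 calls without the first ein2 array, 198 without the second and 359 without the second wild-type array, and leaving out a wild-type ethylene array from the shared fit gave 986 or 979. The median difference in air was 0.12 for the higher set and -0.23 for the lower set.

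Whether the genotypes' difference itself changed between the gases was tested directly. It did for 854 probe sets, or 3.75%, of which 638 were more positive in ethylene, or 2.80%, and 216 more negative, or 0.950%. With the deposited values unscaled this split was 534 to 306. Leaving out an ein2 array gave 403 and 336 calls for those in air and 438 and 332 for those in ethylene. Among the 1456 higher calls 515 also had a larger difference in ethylene, and among the 790 lower calls 156 did in the lower direction. In the 515, the median log2 change of wild type from air to ethylene was -1.05, while ein2 in ethylene differed from wild type in air by a median of -0.03. In the 156, wild type in ethylene was above wild type in air by a median of 0.87, and ein2 in ethylene differed from wild type in air by 0.04. These medians describe sets chosen with the same arrays and carry no test. Another 153 of the higher calls and 123 of the lower ones were called in air in the same direction with no called difference between gases, and M17, BGLU19 and PDF2.1 belong to the former. The largest class, 787 of the higher calls and 510 of the lower ones, was called neither in air nor for the difference between the gases. These calls could be assigned to neither kind. In air 28 of the higher calls and 4 of the lower ones were called in the opposite direction.

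**Figure D5:**
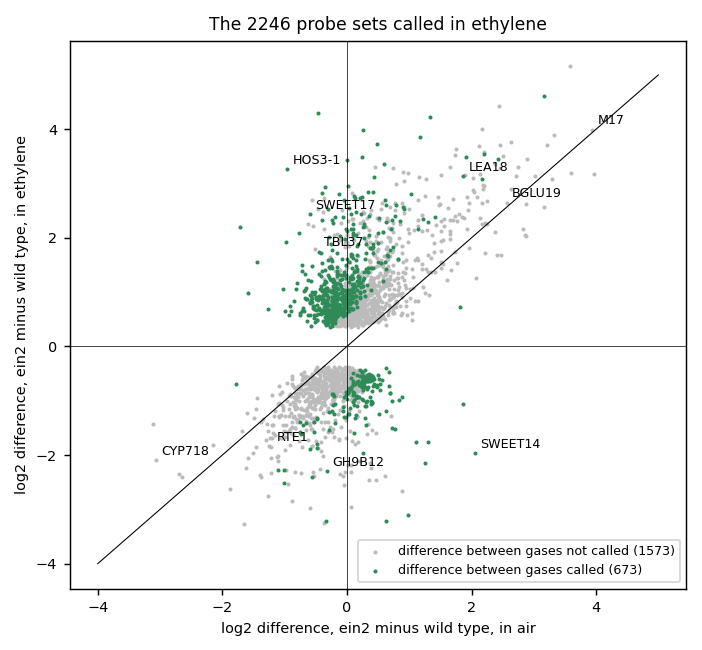
The 2246 probe sets called in ethylene, with the log2 difference of ein2 minus wild type in air on the horizontal axis and in ethylene on the vertical axis; the line marks equal differences. Green points are the 673 whose difference between the gases was called; M17 and BGLU19 lie near the line, and SWEET17, TBL37 and GH9B12 have differences of -0.59, -0.45 and -0.33 in air.

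The mutant ein5, which lacks an exoribonuclease, was compared with the same wild-type arrays in ethylene, and 1156 probe sets were called, or 5.08%, with 489 higher, or 2.15%, and 667 lower, or 2.93%. That split was 711 to 501 with the deposited values unscaled and 688 to 580 after quantile normalization, and it was 887 to 1652 without the first wild-type array and 370 to 240 without the second. Without the first or the second ein5 array 336 and 364 probe sets were called. Since the wild-type arrays are shared, the values are given side by side only. RTE1 differed from wild type by -1.85 in ein2 and -1.05 in ein5, and ARL by -1.43 and -0.57. M17 differed by 3.99 in ein2 and 2.69 in ein5, and LEA18 by 3.13 and 1.71. For AT5G40590 the differences were -2.41 in ein2 and -2.55 in ein5. BGLU19 was at 2.65 in ein2 and at 0.26 in ein5, and the latter was not called (adjusted p = 0.669). The difference between the mutants was not tested.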

How the data were processed

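The deposited values were intensities of 22746 probe sets on 12 Affymetrix ATH1 arrays, which the authors made from scanned images with GeneChip Suite 3.2 and normalized in GeneSpring 4.2, per the series text. The columns had means of 2480 to 2487 after trimming 2% at either end, and medians of 922 to 1039. The number of arrays limits the precision. Each array was rescaled here to its own median, taken over intensities greater than 10 after the series text, and put back on a common level. Log2(scaled intensity + 16) was fitted with limma 3.58.1 in R 4.3.3, with 6 group means over all 12 arrays and a variance trend. Tests were two-sided with Benjamini-Hochberg adjustment over all probe sets, and calls were made at 0.05. The code of the fit was run on simulated data with independent noise and the same spread in every group. That run cannot show how the unequal spread of the real groups bears on the calls.

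Of the probe sets, 13513 were paired with 1 gene, 503 with several and 8730 with none in the annotation used; 13436 matched the RefSeq gene table of TAIR10.1. The members and lists were chosen with earlier results of these data known. List patterns were narrowed after values were seen, because some matched unrelated names, and lists without a member were left out. Lists made from names do not hold family members annotated otherwise. Named genes were the 12 largest called rises and falls with groups that did not overlap, among probe sets paired with 1 gene, up to 4 called members of each list (otherwise the 2 brightest), all ethylene pathway members, and the 3 largest differences between gases in either direction. Alternatives changed the scaling, offset, dim filter, variance trend, arrays fitted, array weights and replicate block, and left out each array.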

Additional observations from a re-analysis of the deposited data

Results flagged for a closer look

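For 31 genes named by the rule, the difference between ein2 and wild type differed between ethylene and air in the test of that difference (log2, ethylene minus air). The following were more positive in ethylene. Among genes known by locus number, the value was 4.77 for AT2G43390, 3.91 for AT3G58230, 3.73 for AT4G26790, 2.68 for AT1G29660 and 1.46 for AT5G66780. HOS3-1 gave 4.22, from 140 and 44.1 in wild type and 912 and 914 in ein2 in ethylene and from 1183 and 897 in wild type and 538 and 509 in ein2 in air. The sugar transporters SWEET17 and SWEET16 gave 3.03 and 1.33. The wall genes TBL37, PME61 and GH9B8 gave 2.20, 2.01 and 0.62, and the expansins EXPB1, EXPA8 and EXPA15 gave 1.44, 1.33 and 0.79. AT1G12010 gave 1.93, GH3.17 1.32, LEA18 1.27, MSRB9 1.26, GSTU26 1.14, UGT84A4 1.11 and TUA1 0.83.

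The difference was more negative in ethylene for the others. AT4G10440 gave -4.08, SWEET14 -4.02 and AT4G35210 -3.84, all dim in ein2 in ethylene. GH9B12 gave -1.97, AT5G40590 -1.84, iqd33 -1.76 and the peroxidase AT5G64120 -1.45. IAGLU gave -1.26, IAA20 -1.03 and PDF2.5 -0.82.

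When 1 array was left out, 14 of the 31 differences between the gases lost their call at least once: those of IAGLU, UGT84A4, AT5G66780, PDF2.5, iqd33, AT3G58230, AT4G35210, SWEET14, MSRB9, TUA1, LEA18, IAA20, EXPA15 and GH9B8. Those of TUA1 and iqd33 did so without any of 11 of the 12 arrays. For some of these genes the call in ethylene alone was lost too. That of AT3G58230 was lost without either ein2 array or the second wild-type array (adjusted p up to 0.154 over all alternatives), and that of TUA1 without either ein2 array or the first wild-type array (up to 0.123). That of iqd33 was lost without the first ein2 or the second wild-type array (up to 0.172), and that of GH9B8 without the first ein2 array (0.0557).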

How the results depend on the processing

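The scaling, the offset and the filter on dim probe sets moved the 2246 calls in ethylene to between 2228 and 2490. Without the variance trend the counts were 1438 in ethylene, 123 in air, 243 for the difference between gases and 317 for ein5. With only the groups compared in the fit they were 1267, 265, 536 and 254. With array weights they were 1519, 767, 627 and 686. The wild-type arrays in ethylene had the lowest weight, 0.52, against 1.16 for the ein2 arrays in ethylene. Leaving out each of the 12 arrays gave 1131 to 2425 calls in ethylene, 160 to 986 in air, 332 to 1174 for the difference and 336 to 2539 for ein5; fewer arrays also mean fewer degrees of freedom. Of 94 named calls, 52 were kept in all settings, 57 in all that kept every array and 53 in all that left 1 out. With the replicate number as a block the counts were 2225, 611, 851 and 1158, and among named calls the block ended 1. No pair of groups had deviations of same-numbered arrays correlated above 0.1 (r from -0.04 to 0.07). The labels give only a replicate number, and such correlations cannot show whether same-numbered arrays shared a preparation. Differences that turned sign, none of them called, ranged as follows when arrays were left out: AIM1 from -0.20 to 0.014, ETP2 from -0.0017 to 0.35, ICL from -0.40 to 0.57, INP1 from -0.86 to 1.63, LHCB4.1 from -0.29 to 0.060 and bHLH115 from -0.16 to 0.28. After quantile normalization ICL was at -0.062 and ILR3 at -0.0096, and with deposited values ILR3 was at -0.005 and bHLH115 at -0.001. The cause was not tested. Between 3.86% and 6.16% of values per array lay at or below the offset of 16, and changes there are bounded by it.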

Other observations

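The genes in the following paragraphs were chosen after their values were seen and are described with no claim for their groups. Where leaving out 1 of the 12 arrays ended a call, this is said at the end of the paragraph. Several genes linked to glucosinolates and ER bodies, defence compartments of the cabbage family, were higher in ein2 in ethylene. NAI1, the basic helix-loop-helix factor needed for ER bodies, was at 2007 and 1169 in wild type and 3743 and 3460 in ein2 (log2 difference 1.22 ± 0.20, adjusted p = 0.00115). NAI2, a protein of the ER body, was among the brightest transcripts, at 24436 and 30321 in wild type and 46454 and 47267 in ein2 (log2 difference 0.78 ± 0.15, adjusted p = 0.00424). The glucosinolate transporters GTR1 and GTR2 were higher by 0.67 ± 0.14 and 0.62 ± 0.12, and UGT74B1, a glucosyltransferase of glucosinolate synthesis, by 0.50 ± 0.12. Without the second ein2 array in ethylene the calls of NAI2, GTR2 and UGT74B1 were lost, without the first those of GTR1 and UGT74B1, and without the second wild-type array in ethylene that of UGT74B1 (adjusted p up to 0.101).

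Nuclear genes for plastid proteins were found among the lower calls. LIL3:1, which acts in chlorophyll synthesis, was at 8150 and 7525 in wild type and 4914 and 4531 in ein2 (log2 difference -0.73 ± 0.12, adjusted p = 0.00083). LIL3:2 was at 18158 and 21272 in wild type and 12088 and 11763 in ein2 (log2 difference -0.72 ± 0.15, adjusted p = 0.00576). DPE1, which breaks down maltotriose from starch, had a log2 difference of -0.80 ± 0.16, SBPASE of the Calvin cycle one of -0.47 ± 0.12, and PAM68 and LPA1, both needed to build photosystem II, differences of -0.62 ± 0.16 and -0.74 ± 0.19. The calls of SBPASE, PAM68 and LPA1 were lost without the first ein2 array in ethylene, and those of LIL3:2, SBPASE and LPA1 without the second. Those of SBPASE and PAM68 were lost without the second wild-type array and that of LPA1 without the first (adjusted p up to 0.183).

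Related genes also went opposite ways. BETA-VPE, the vacuolar processing enzyme of seeds, was at 2460 and 2457 in wild type and 5785 and 6003 in ein2 (log2 difference 1.26 ± 0.12, adjusted p = 1.1e-05), while ALPHA-VPE, a vegetative form, was at 1491 and 1806 in wild type and 613 and 598 in ein2 (log2 difference -1.42 ± 0.22, adjusted p = 0.00059). PAP85, a vicilin-like seed protein, was at 362.4 and 392.4 in wild type and 1571 and 1937 in ein2 (log2 difference 2.16 ± 0.28, adjusted p = 0.00018). M10, a late embryogenesis gene like M17, was lower in ein2 in ethylene, at 641 and 740 against 1764 and 1196 (log2 difference -1.06 ± 0.26, adjusted p = 0.0174), and higher in ein2 in air, at 1933 and 1636 against 445 and 513 (log2 difference 1.86 ± 0.26, adjusted p = 0.00142). M17 was higher in ein2 in both gases. The ethylene call of M10 was lost without either ein2 array or the first wild-type array (adjusted p up to 0.127).

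For some transcripts the ein2 arrays in ethylene lay well above the ein2 arrays in air. AT5G40590 was at 140 and 152 in ein2 in air and 1645 and 1671 in ethylene, AT5G19890 at 291 and 488 in air and 3663 and 4146 in ethylene, and CYP718 at 48.7 and 67 in air and 1045 and 1196 in ethylene. The change of ein2 from air to ethylene was not tested here.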
